A study of Arabidopsis thaliana with 10 samples.

Results

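The cytochrome P450 family of Arabidopsis thaliana was followed through leaves of heat-grown plants, their unstressed progeny and a small RNA mutant. Members were taken from the gene table by name, as every gene whose symbol was CYP followed by a family number and a subfamily letter. The table held 33602 genes, of which 247 had such a name. The rule left out 2 of them, and 121 of the other 245 had at least 100 counts summed over the 10 libraries. Of the 124 below that minimum, 55 had no count in any library and 69 had between 1 and 99 counts. CYP86C3 with 120 counts, CYP71B37 with 131 and the pseudogene CYP705A17P with 157 were the members nearest to the minimum, and CYP706A7 with 99, CYP96A9 with 75 and CYP71A23 with 72 fell just outside it. The minimum was set on the sum of counts over all libraries, so that a gene counted only in 1 group could pass through that group.

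Cytochromes P450 are haem enzymes that use molecular oxygen and electrons from a reductase to insert oxygen into small molecules, and plants hold one of the largest sets of them known. In Arabidopsis they make or break down most hormones, among them brassinosteroids, gibberellins, abscisic acid, jasmonates and strigolactones. They also make lignin precursors, cutin, sterols and carotenoids, and the glucosinolates and camalexin that protect leaves from microbes and insects. Families are numbered by sequence, so that CYP71B15 is a member of family CYP71 and subfamily B. Many members of 1 subfamily lie side by side on a chromosome.

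PolyA RNA of the fifth true leaf was sequenced from plants that were 4 weeks old, in 5 groups of 2 libraries. Wild-type Col-0 was kept at 22 °C, and a second Col-0 group was moved to 30 °C after a first week on plates and is called 30 °C-grown here. Generation 2 was the unstressed Col-0 progeny of the 30 °C-grown plants, and generation 3 the unstressed progeny of generation 2. The fifth group was the unstressed mutant sgs3-12, which carries an allele of SGS3, a gene whose protein works in the production of secondary small RNAs. All plants had 3 days of cold and were grown in long days of 16 h light and 8 h dark. Whether the paired libraries are separate plants is not stated in the labels, so that the p-values here reflect the spread between these libraries alone, which may be technical. The number of plants behind a library and the way the generations were propagated are not given in these sources.

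Total counts ranged from 17674090 to 23145159 per library. The leaf label was met by its markers: all 10 leaf mesophyll genes were detected, with a summed level of 54381 to 139937 CPM (counts scaled to a common library size with edgeR's TMM factors), whereas 1 of 10 root genes reached 1 CPM in any library and the root list summed to 0.112 to 14.2 CPM. Of 8 flower genes, AP1, AP3, PI and LFY stayed under 1 CPM in every library. SGS3 itself was at 24 and 35.1 CPM in wild-type leaves, 25.4 and 21 CPM in 30 °C-grown plants, 9.48 and 7.87 CPM in generation 2, 14.1 and 15.2 CPM in generation 3 and 9.40 and 8.02 CPM in sgs3-12. SGS3 counts were thus low in the libraries labelled as mutant, and as low in generation 2. The generation 2 pair stood apart from the other pairs, with a correlation of log2 CPM over all genes of 0.788 against 0.919 to 0.969 in the other 4 pairs. Library 1 of generation 2 and library 1 of generation 3 also had the highest mesophyll sums and fewer counts in long transcripts (slopes of log2 level on log10 transcript length of -2.13 and -1.16, against -0.43 to 1.13 in the other 8 libraries). Generation 2 levels of single genes are given below with the values of both libraries.

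What joins the members is the loop that holds the haem. It lies near the end of the coding sequence and ends in a cysteine whose sulphur binds the haem iron. The published pattern of that loop, phenylalanine, any pair of residues, glycine, any residue, arginine, any residue, cysteine, any residue, glycine, was complete in the translated RefSeq coding sequence of 89 of 118 members. A relaxed form, which keeps the cysteine and the first glycine and lets some of the other positions vary, was found in 26 more, and neither in CYP72C1, CYP74B2 and CYP77A5P. No coding sequence was read for 3 members. The cysteine codon was TGT in 79 loops and TGC in 36. The loops below are shown for the members on which the comparisons turn, 30 bases each on the coding strand (RefSeq, TAIR10.1), with the cysteine codon in capitals.
CYP71B36: tttggaagtggtcgaagaatgTGTcctgcc
CYP71B37: tttggaagtggtaggagaatgTGTcctgcc
CYP71B22: tttggtgctggtcgcaggattTGTccagga
CYP71A25: tttggagcagggagaaggattTGTccagca
CYP707A3: tttggtagtgggattcattctTGTccaggc
CYP707A4: tttggaagtggagttcatgctTGTcccggg
CYP711A1: ttcggtatcggtccacgagccTGTgttgga
CYP705A19: ttcggtagtggaaggagaggcTGCccagga
CYP76C1: ttcggagccggacgtagaattTGCccggga
CYP74A: ccgacggtggggaataaacaaTGCgccggt
The loops of CYP71B36 (chr3:9644560-9644589, minus strand) and CYP71B37 (chr3:9647050-9647079, minus strand) come from neighbouring genes whose coding sequences are 88.8% identical, and the pair differed in expression as described below. CYP74A (chr5:17097941-17097970, minus strand), the allene oxide synthase of jasmonate synthesis, belongs to an unusual branch of the family that needs no reductase, and its loop kept the glycine and cysteine but not the phenylalanine or the arginine.

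Position and sequence also set how far single members can be told apart. Of the 121 members, 47 lie on chromosome 3, and 62 members fall into 15 runs in which neighbouring members are no more than 20 kb apart. The longest run, of 8 members, is made of CYP86C2 and CYP71B genes on chromosome 3 (TAIR10.1 chr3:9551812-9599959). The nearest other P450 had a median coding identity of 81.9%, and 23 members had a neighbour in sequence at 90% or more, among them CYP71A12 and CYP71A13 at 90.4%. The sources used here do not give how reads of overlapping genes, or reads that match several genes, were counted, and values of such members are uncertain. This applies also to 12 members that overlap another gene with at least 100 counts, namely CYP704A2, CYP705A15, CYP705A16, CYP711A1, CYP712A1, CYP71A21, CYP71B6, CYP81D11, CYP81F1, CYP86A2, CYP97A3 and CYP98A3.

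By length-scaled level (CPM per kilobase of transcript, mean over all 10 libraries) CYP74A was the most abundant member at 292, followed by CYP83B1 at 178, which commits tryptophan-derived oximes to indole glucosinolates. CYP86A2, a fatty acid hydroxylase of cutin synthesis, followed at 118. CYP89A2 was at 89.7, CYP84A1, a hydroxylase of the lignin pathway, at 77.2, CYP706A6 at 74.1 and CYP73A5, the cinnamate hydroxylase that opens the phenylpropanoid pathway, at 73.7. CYP706A1 at 69.7, CYP72A15 at 59.8 and the carotenoid hydroxylase CYP97A3 at 59.4 completed the first 10. The order was not fixed: CYP74A ranged from 75 in an sgs3-12 library to 538 in a generation 2 library. That range takes in the means of the members that follow it down to CYP84A1, and the ranges of the members after CYP86A2 overlapped one another. The median over all members was 10.2, and the lowest mean was 0.159.

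No member was called in any of the 6 comparisons by the main test, edgeR's quasi-likelihood test with Benjamini-Hochberg adjustment over 19768 genes at an adjusted p under 0.05, and no other gene was either (background 0% in each comparison). The lowest adjusted p of a member lay between 0.266 in sgs3-12 and 0.580 for generation 3 against 30 °C-grown plants. The spread was estimated over all 5 groups together, so that the gaps within the generation 2 pair enter every comparison. A lack of calls therefore does not show that levels were equal. DESeq2, run as an alternative, called some members in each comparison, and the members it called are named with each comparison. Against wild type, edgeR's unadjusted p was under 0.05 and the level higher for 11 members in 30 °C-grown plants (4.93% of all genes tested), 18 in generation 2 (7.16%), 14 in generation 3 (4.36%) and 16 in sgs3-12 (4.98%), of 121 each time, or 9.09%, 14.9%, 11.6% and 13.2% of the members. The level was lower at the same p for 7 members at 30 °C (2.98% of all genes), 8 in generation 2 (4.48%), 2 in generation 3 (4.22%) and 5 in sgs3-12 (4.93%), or 5.79%, 6.61%, 1.65% and 4.13% of the members. The 4 comparisons share the 2 wild-type libraries. In bulk leaf RNA, fewer cells of a type and less RNA per cell cannot be told apart, which holds for every level below.

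The median log2 fold change of the 121 members against wild type was 0.28 at 30 °C, 0.27 in generation 2, 0.40 in generation 3 and 0.14 in sgs3-12, beside -0.02, 0.11, 0.04 and 0.01 over all genes tested. Positive values were held by 72, 76, 82 and 65 of the 121 members, or 59.5%, 62.8%, 67.8% and 53.7%, beside 48.3%, 55.2%, 52.3% and 50.5% of all genes tested. Without library 2 of generation 2 the generation 2 median was -0.12. Without wild-type library 2 the sgs3-12 median was 0.28.

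**Figure D1:**
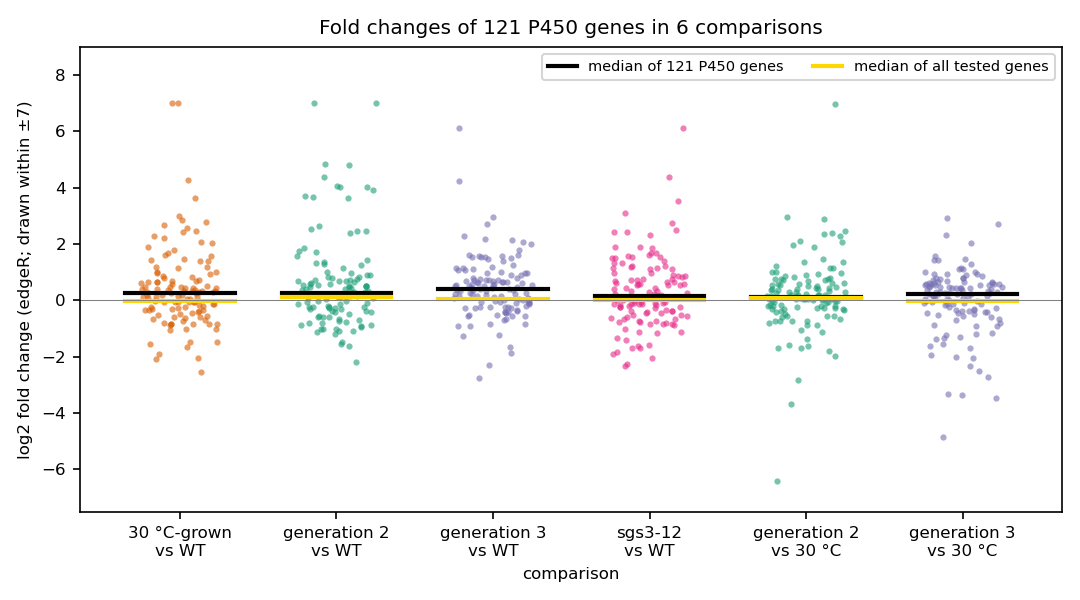
Each point is the edgeR log2 fold change of 1 of 121 P450 genes in 1 of 6 comparisons (x axis); the y axis is log2, and the few values beyond its drawn limit are placed at that limit. Black bars mark the members' medians, from 0.13 (generation 2 against 30 °C-grown) to 0.40 (generation 3 against wild type), and yellow bars the medians of all tested genes, from -0.02 to 0.11.

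**Figure D2:**
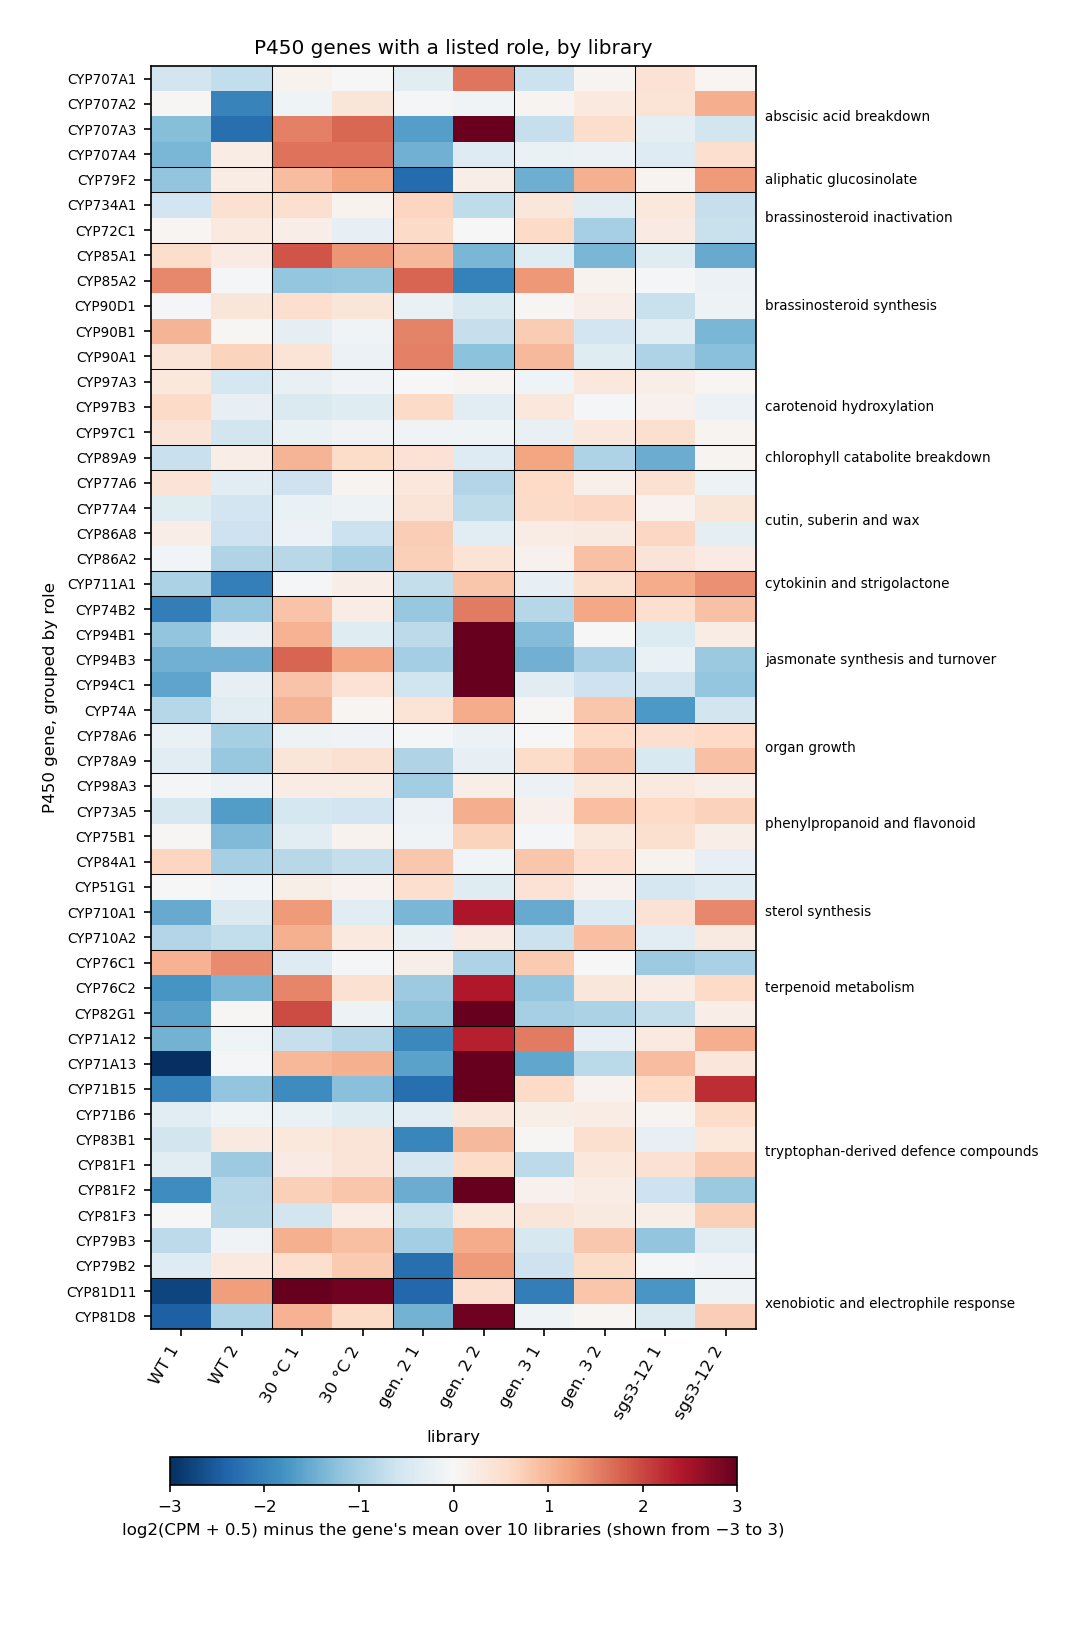
Each row is a P450 member with a listed role and each column a library, in the order wild type (WT), 30 °C-grown, generation 2, generation 3 and sgs3-12; colour is log2(CPM + 0.5) minus the gene's mean over the 10 libraries, red for higher and blue for lower. Library 2 of generation 2 holds the deepest red, in CYP71B15, CYP71A13, CYP94B3 and CYP81F2, and CYP81D11 is red in both 30 °C libraries at 140.3 and 86.2 CPM.

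In 30 °C-grown leaves the members with the lowest edgeR p among those above wild type were CYP71B37, CYP71A25 and CYP71B22, all of unassigned function, and among those below it CYP86C4, CYP709B3 and CYP76C1. None of these was called by edgeR. Both 30 °C libraries exceeded both wild-type libraries for 46 members (26.3% of all genes) and below them for 25 (25.2% of all genes), which is 38% and 20.7% of the members. CYP71A25 was at 8.18 and 15.2 CPM in wild-type leaves and 44.6 and 43.3 CPM at 30 °C. Its log2 fold change was 1.91 ± 0.44 (SE), with an adjusted p of 0.419 from edgeR and 0.0119 from DESeq2. In the progeny it was back at 11.3 and 11.2 CPM in generation 2 and 13.9 and 24 CPM in generation 3, so that 1 generation 3 library lay above wild type and the other 3 libraries lay within its range. CYP71B22 was at 5.08 and 4.08 CPM in wild-type leaves, 31 and 31.6 CPM at 30 °C, 7.85 and 12.6 CPM in generation 2, 19.97 and 7.39 CPM in generation 3 and 5.28 and 1.78 CPM in sgs3-12, so that the 30 °C pair lay above every other library. The log2 fold change at 30 °C was 2.77 ± 0.65 (SE), with adjusted p values of 0.419 (edgeR) and 0.00623 (DESeq2). CYP71B37 had no count in wild type or sgs3-12 and was at 4.42 and 1.01 CPM at 30 °C, 0 and 0.0486 CPM in generation 2 and 0.265 and 0.535 CPM in generation 3. Against a floor of 3 counts over the wild-type pair it was at least 38.3-fold higher at 30 °C (adjusted p 0.416 with edgeR and 0.00446 with DESeq2). Most of its 131 counts came from the 30 °C pair, and it reached the minimum of 100 counts only through that group. Its high level at 30 °C was thus partly fixed by the choice of members. Those 3 genes were the members that DESeq2 called as higher at 30 °C (0.97% of all genes), and it called none as lower (0.372% of all genes). With library 1 of generations 2 and 3 both left out, edgeR called 1 member at 30 °C, CYP707A3.

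Abscisic acid is inactivated by the hydroxylases of the CYP707A subfamily, and all 4 of them were members. CYP707A3 was at 2.43 and 0.973 CPM in wild-type leaves, 19.6 and 22.8 CPM at 30 °C, 1.74 and 54.8 CPM in generation 2, 3.91 and 9.73 CPM in generation 3 and 5.32 and 4.36 CPM in sgs3-12. CYP707A4 was at 0.796 and 3.38 CPM in wild-type leaves, 9.77 and 9.81 CPM at 30 °C, 0.729 and 2.04 CPM in generation 2, 2.39 and 2.48 CPM in generation 3 and 2.04 and 4.28 CPM in sgs3-12. For both genes the 30 °C pair agreed closely and did not overlap wild type, with log2 fold changes of 3.63 ± 1.28 (SE) and 2.23 ± 0.76 (SE) and edgeR adjusted p values of 0.552 and 0.533. CYP707A1 was at 1.59 and 1.34 CPM in wild-type leaves, 2.82 and 2.58 CPM at 30 °C and 1.91 and 8.75 CPM in generation 2. At 30 °C CYP707A2 was at 7.43 and 10.7 CPM against 8.36 and 1.67 CPM, and these overlapped. At an unadjusted p under 0.05, 2 of the 4 genes were higher at 30 °C, 2 in generation 2, none in generation 3 and 1 in sgs3-12. The shares of all genes were 4.93%, 7.16%, 4.36% and 4.98%. None of the 4 was lower in any group at that p. CYP709B3, which in Arabidopsis has been linked to the response to abscisic acid and salt, was at 129 and 82.6 CPM in wild-type leaves and 33.1 and 43.1 CPM at 30 °C, a log2 fold change of -1.48 ± 0.45 (SE) (edgeR adjusted p 0.498).

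**Figure D3:**
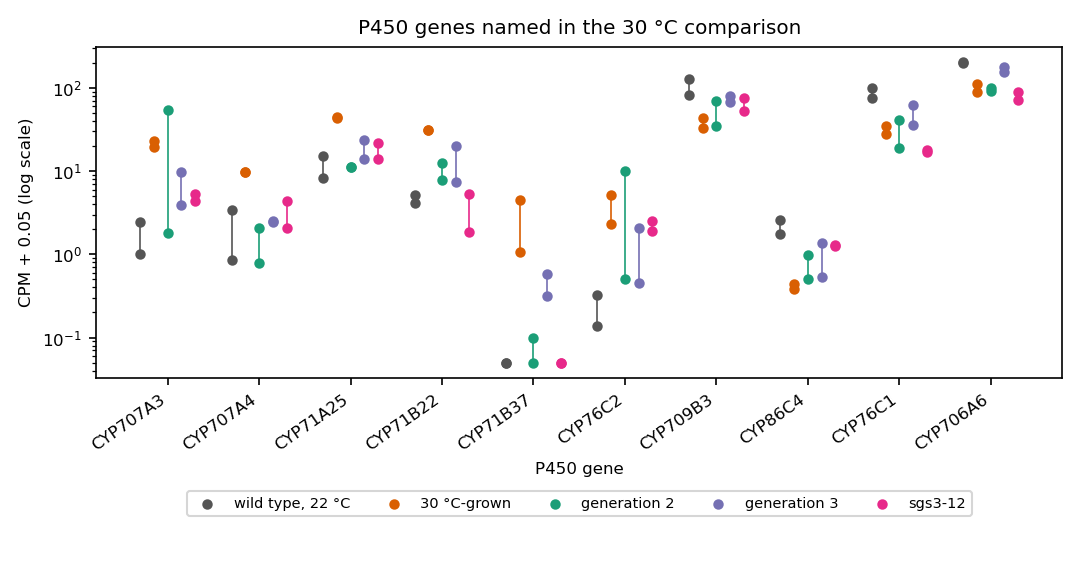
CPM + 0.05 on a log axis for 10 P450 genes (x axis), with 1 point per library, a line joining the 2 libraries of a group, and colour for the group. The orange 30 °C pairs of CYP71A25 and CYP71B22 lie above every other pair, those of CYP709B3 and CYP86C4 lie below their wild-type pairs, and the generation 2 pair of CYP707A3 spans 1.74 to 54.8 CPM.

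Jasmonate genes were mostly higher in the 30 °C pair. CYP74A makes the allene oxide from which jasmonate is formed, and CYP94B1, CYP94B3 and CYP94C1 oxidise the active hormone jasmonoyl-isoleucine. CYP74B2 is named as a hydroperoxide lyase, a class that draws on the same substrates as CYP74A. Its RefSeq coding sequence, of 1155 bases, held neither form of the haem loop, and whether it makes an active enzyme was not tested. CYP74A was at 248 and 355 CPM in wild-type leaves, 915 and 466 CPM at 30 °C, 595 and 969 CPM in generation 2, 459.8 and 805 CPM in generation 3 and 135 and 306 CPM in sgs3-12. CYP74B2 was at 1.81 and 3.94 CPM in wild-type leaves, 17.3 and 11 CPM at 30 °C, 3.93 and 28.2 CPM in generation 2, 4.91 and 21.3 CPM in generation 3 and 13.4 and 17.5 CPM in sgs3-12. CYP94B3 had no wild-type count and was at 4.03 and 2.54 CPM at 30 °C, at least 47.6-fold higher over the 3-count floor (edgeR adjusted p 0.554). Of the 5 jasmonate genes, 4 had both 30 °C libraries above both wild-type libraries, beside 26.3% of all genes. The median log2 fold change of the 5 was 2.04 at 30 °C, 4.02 in generation 2, 1.07 in generation 3 and 1.18 in sgs3-12. In generation 2, 4 of the 5 were higher at an unadjusted edgeR p under 0.05, beside 7.16% of all genes. Library 2 was the higher one for all 5. CYP94B3 was at 0.168 and 36.3 CPM in generation 2 and 0 and 0.195 CPM in generation 3. In sgs3-12 it was at 0.68 and 0.134 CPM.

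Among terpenoid genes, CYP76C1 and CYP76C2 are tandem neighbours on chromosome 2 with 83.5% coding identity, and both oxidise linalool. They differed in direction. CYP76C2 was at 0.0884 and 0.278 CPM in wild-type leaves, 5.05 and 2.28 CPM at 30 °C and 0.449 and 10.11 CPM in generation 2, with a log2 fold change of 4.29 ± 1.45 (SE) at 30 °C. CYP76C1 was at 75.7 and 98.5 CPM in wild-type leaves and 27.6 and 35 CPM at 30 °C, with a log2 fold change of -1.48 ± 0.46 (SE). The edgeR adjusted p was 0.532 for the first and 0.499 for the second. CYP706A6 was at 199.6 and 205 CPM in wild-type leaves and 88.8 and 112 CPM at 30 °C, and CYP86C4, in the fatty acid hydroxylase family CYP86, at 2.56 and 1.72 CPM and 0.389 and 0.338 CPM.

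Some sterol, defence and detoxification genes had both 30 °C libraries above wild type, with less agreement between libraries. All 3 sterol genes lay above wild type in both 30 °C libraries, beside 26.3% of all genes. CYP710A2, a sterol desaturase, was at 6.10 and 6.72 CPM in wild-type leaves and 24.9 and 14.4 CPM at 30 °C, with generation 2 at 9.92 and 13.9 CPM. CYP51G1, the obtusifoliol demethylase that all plant sterols pass through, was at 71.9 and 67.7 CPM in wild-type leaves, 82.3 and 77.5 CPM at 30 °C, 103 and 55.8 CPM in generation 2, 98.6 and 79.4 CPM in generation 3 and 50.5 and 55 CPM in sgs3-12. CYP81D11, a gene induced by xenobiotics and oxylipins, was at 1.24 and 27.2 CPM in wild-type leaves, 140.3 and 86.2 CPM at 30 °C, 1.79 and 16.1 CPM in generation 2, 2.26 and 20.2 CPM in generation 3 and 3.00 and 10.02 CPM in sgs3-12. Its 30 °C pair was the highest, but wild type, generation 2 and generation 3 each held a low library 1 and a higher library 2. CYP81D8, of the same subfamily, was at 1.77 and 6.03 CPM in wild-type leaves and 25.2 and 18.4 CPM at 30 °C. Of 10 members that make or modify tryptophan-derived defence compounds, 6 lay above wild type in both 30 °C libraries and none below, beside 26.3% and 25.2% of all genes; CYP79B3, which turns tryptophan into its oxime, was at 42.1 and 68.1 CPM in wild-type leaves and 154 and 137 CPM at 30 °C, while the camalexin synthase CYP71B15 was at 0.0884 and 0.556 CPM and 0.146 and 0.507 CPM. No gene of that list had an unadjusted edgeR p under 0.05 at 30 °C. CYP83B1, the most abundant of them, was at 189 and 333 CPM in wild-type leaves, 345 and 363 CPM at 30 °C, 71.4 and 548 CPM in generation 2, 283 and 391 CPM in generation 3 and 232 and 344 CPM in sgs3-12, so that library 1 of generation 2 held its lowest and library 2 its highest level. CYP79F2, the only aliphatic glucosinolate gene among the members, was at 4.77 and 13.3 CPM in wild-type leaves, 22.2 and 26.7 CPM at 30 °C, 1.91 and 13.1 CPM in generation 2, 3.78 and 24.4 CPM in generation 3 and 12.1 and 28.1 CPM in sgs3-12, with library 2 above library 1 in each of the 5 pairs. Its nearest P450 in sequence, CYP79F1 at 91.9% coding identity, was among the genes that the rule left out. How reads that match both genes were counted is not given in these sources. CYP89A9, which oxidises chlorophyll breakdown products, was at 46.9 and 86.6 CPM in wild-type leaves, 154 and 111 CPM at 30 °C, 101 and 57 CPM in generation 2, 172 and 39.5 CPM in generation 3 and 26.6 and 79.2 CPM in sgs3-12, and its 30 °C pair lay within the wide range of generation 3.

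Carotenoid and brassinosteroid genes had median changes near 0 at 30 °C. The 3 carotenoid hydroxylases, which form lutein, had a median log2 fold change of -0.14 at 30 °C, -0.03 in generation 2, 0.07 in generation 3 and 0.18 in sgs3-12; CYP97B3 was at 155 and 87.5 CPM in wild-type leaves, 76.6 and 80.2 CPM at 30 °C, 155 and 82.8 CPM in generation 2, 129 and 99.5 CPM in generation 3 and 114 and 92.4 CPM in sgs3-12, with library 1 above library 2 in 4 of the 5 pairs. None of these genes had an unadjusted p under 0.05 in any of the 4 comparisons with wild type. The 6 brassinosteroid synthesis genes tested, of which 5 were members, had a median log2 fold change of -0.06 at 30 °C. At 30 °C 2 of these genes lay above and 2 below both wild-type libraries, beside 26.3% and 25.2% of all genes. CYP85A2, which makes brassinolide, was at 48 and 16.5 CPM in wild-type leaves and 7.48 and 7.65 CPM at 30 °C, and CYP85A1, which makes its precursor castasterone, at 1.90 and 1.48 CPM and 5.68 and 3.68 CPM. CYP90A1, the most abundant of the pathway, was at 185 and 224 CPM in wild-type leaves, 187 and 125 CPM at 30 °C, 406 and 59.9 CPM in generation 2, 279.6 and 110.0 CPM in generation 3 and 73.7 and 58.7 CPM in sgs3-12. The 2 genes that inactivate brassinosteroids, CYP734A1 and CYP72C1, overlapped wild type in all 4 groups. CYP734A1 was at 4.42 and 9.60 CPM in wild-type leaves, 9.72 and 7.44 CPM at 30 °C, 11 and 3.89 CPM in generation 2, 8.89 and 5.40 CPM in generation 3 and 8.76 and 4.10 CPM in sgs3-12. Gibberellin synthesis had no member, since the 3 listed genes that were tested carry other symbols in the table: CYP701A3, the kaurene oxidase, was at 18.8 and 12.2 CPM in wild-type leaves and 11 and 11.7 CPM at 30 °C, and CYP88A3, a kaurenoic acid oxidase, at 9.95 and 15.7 CPM in wild-type leaves and 2.58 and 6.56 CPM in generation 2.

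The electron donors of the family were listed beside it. ATR1 and ATR2, the P450 reductases, and 5 cytochrome b5 genes were all tested. Of these 7, 5 lay above wild type in both 30 °C libraries and none below, beside 26.3% and 25.2% of all genes. At an unadjusted edgeR p under 0.05, 1 was higher at 30 °C, 2 in generation 2, 2 in generation 3 and none in sgs3-12. The shares of all genes were 4.93%, 7.16%, 4.36% and 4.98%. The gene at 30 °C was CB5-C, at 43.4 and 39.1 CPM in wild-type leaves and 116 and 86.4 CPM at 30 °C. It was at 100.7 and 100.2 CPM in generation 2 and 83.6 and 141 CPM in generation 3. ATR1 was at 81.5 and 138 CPM in wild-type leaves and 105 and 96.1 CPM at 30 °C, while ATR2, the stress-inducible reductase, was at 90.4 and 91.6 CPM and 134 and 139 CPM. ATR2 was at 63.9 and 499.7 CPM in generation 2, where library 2 was also the higher one for many members.

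Generation 2 had no single profile, because its 2 libraries differed by more than 4-fold for 29 of 121 members, or 24%, against 15.6% of all genes tested. In the other groups 9 members differed so far in wild type, 5 in generation 3, 1 at 30 °C and 0 in sgs3-12, beside 3.37%, 3.64%, 0.319% and 0.653% of all genes. In generation 2, library 2 was the higher one for 24 of the 29 members. The direction of such gaps was not counted over all genes. Members also had to reach the minimum of summed counts, which was not asked of all genes tested. A member high in only 1 library could thus enter largely through that library. This bears on CYP71B15, whose levels in wild type and at 30 °C, given above, were under 1 CPM. How far the choice of members raised their share of wide gaps was not tested. The median log2 difference of library 2 from library 1 was 0.25 over the members and -0.002 over all genes tested. The widest gaps included those of tryptophan-derived defence genes and jasmonate oxidation genes. CYP71B15, the last enzyme of camalexin synthesis, was at 0 and 85 CPM in libraries 1 and 2. CYP71A13, which makes the nitrile precursor of camalexin, was at 1.96 and 143 CPM, and CYP71A12, its near copy, at 0 and 9.18 CPM. CYP81F2, which hydroxylates indole glucosinolates, was at 0.953 and 67.1 CPM and CYP83B1 at 71.4 and 548 CPM. Jasmonoyl-isoleucine oxidation differed in the same way: CYP94B3 was at 0.168 and 36.3 CPM and CYP94C1 at 1.79 and 49.7 CPM. CYP82G1, which makes a volatile homoterpene, was at 0.168 and 16.1 CPM, and CYP81D8 at 4.15 and 93.3 CPM.

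Library 1 was the higher one for 5 members, and 4 of them make brassinosteroids. CYP90A1, which acts early in that pathway, was at 406 and 59.9 CPM in libraries 1 and 2, CYP90B1, the rate-limiting hydroxylase, at 35.8 and 7.58 CPM and CYP85A2 at 59.5 and 3.84 CPM. CYP85A1 was at 2.75 and 0.146 CPM, and the fifth was CYP71A24, at 7.79 and 0.68 CPM. The 2 generation 3 libraries had the same order for these 4 brassinosteroid genes with smaller gaps, CYP90A1 at 279.6 and 110.0 CPM and CYP85A2 at 43.5 and 18.7 CPM. The mesophyll marker sum was 139937 CPM in library 1 of generation 2 and 73648 CPM in library 2, and the slope on transcript length was -2.13 and 0.50. Their part in the gap between the libraries was not tested.

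**Figure D4:**
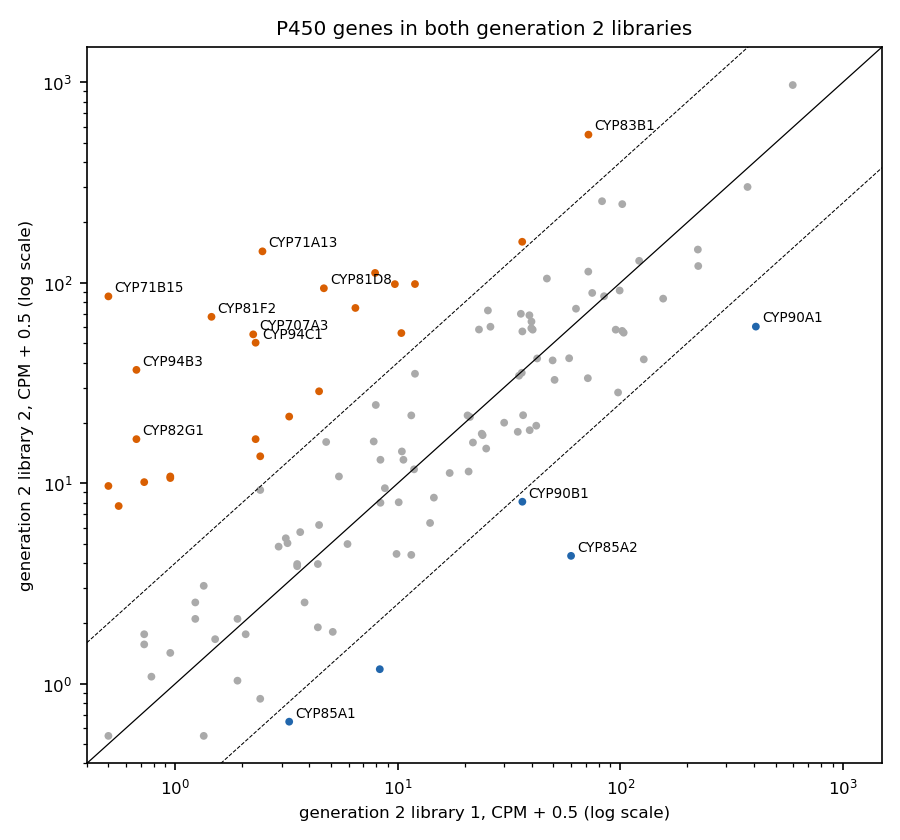
CPM + 0.5 of each of 121 P450 genes in generation 2 library 1 (x axis) and library 2 (y axis), both log axes; the solid line marks equal levels and the dashed lines a 4-fold difference. Of the 29 genes outside the dashed lines, 24 (orange) are higher in library 2, led by CYP71B15 at 0 and 85.0 CPM, and 5 (blue) are higher in library 1, led by CYP85A2 at 59.5 and 3.84 CPM.

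Against wild type, 22 members had both generation 2 libraries above both wild-type libraries (16.8% of all genes) and 13 below (17.2% of all genes), or 18.2% and 10.7% of the members. Members whose 2 generation 2 libraries were close to each other included CYP71B36 at 8.24 and 8.94 CPM, CYP705A19 at 23.6 and 16.9 CPM and CYP706A6 at 98.8 and 91 CPM, against wild-type levels of 2.56 and 4.22 CPM, 8.44 and 8.02 CPM and 199.6 and 205 CPM. Their log2 fold changes were 1.34 ± 0.39 (SE), 1.29 ± 0.40 (SE) and -1.09 ± 0.32 (SE), each with an edgeR adjusted p of 0.357. DESeq2 called 7 members as higher (2.23% of all genes) and 2 as lower (0.936% of all genes), the latter CYP706A6 at an adjusted p of 0.0164 and CYP76C1 at 0.0429. The 7 higher ones were CYP94B3 at 0.00657, CYP81F2 at 0.00688, CYP76C2 at 0.0134, CYP707A3 at 0.0166, CYP94C1 at 0.0171, CYP81D8 at 0.0281 and CYP706A2 at 0.0354 (DESeq2 adjusted p). CYP706A2 was at 0.449 and 10.3 CPM in generation 2, and all 7 had the far higher level in library 2. Calls depended on the pair: without library 1 of generation 2 edgeR called 12 members, 10 of them higher, among 764 genes, of which 715 were higher. Without library 2 it called 3 members, all lower, among 1637 genes, of which 51 were higher, and with both libraries it called 0. With 1 generation 2 library left, its spread is taken from the other groups.

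The promoters of all members with a protein-coding gene in RefSeq were read for letters known from stress promoters, whatever their levels. The window ran from 250 bases before to 50 bases after the annotated start, on both strands. The G-box CACGTG, which is the same on both strands, was present in 9 of 118 member promoters, or 7.63%, against 8.95% of 18977 promoters of tested genes. The W-box TTGACC was present in 17 of 118, or 14.4%, and in 14.4% of all. The evening element AAATATCT was in 7 member promoters, 5.93% against 6.04%, and the heat shock element in 0 of 118 against 0.548%. These shares are a description of letters, and none of these windows is shown here to bind a factor. CYP707A1, CYP707A3 and CYP81D8 were the members with both a G-box and a W-box in the searched form TTGACC. The form TTGACT was not searched, and it stands in small letters in the windows below. The windows of CYP707A3 (chr5:18370972-18371271, minus strand) and CYP81D8 (chr4:17571694-17571993, minus strand) are shown as examples, picked after the values of all 3 were seen and for the wider gap between the generation 2 libraries, 31.5-fold and 22.5-fold against 4.59-fold in CYP707A1. They are written in gene direction with both motifs in capitals, the W-box as its reverse complement (RefSeq, TAIR10.1).
CYP707A3 promoter: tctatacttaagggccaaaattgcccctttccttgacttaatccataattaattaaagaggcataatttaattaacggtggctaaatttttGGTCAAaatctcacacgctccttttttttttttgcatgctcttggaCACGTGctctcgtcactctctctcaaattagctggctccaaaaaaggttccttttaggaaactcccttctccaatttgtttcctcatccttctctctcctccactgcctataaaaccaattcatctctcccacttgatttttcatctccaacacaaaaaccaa
CYP81D8 promoter: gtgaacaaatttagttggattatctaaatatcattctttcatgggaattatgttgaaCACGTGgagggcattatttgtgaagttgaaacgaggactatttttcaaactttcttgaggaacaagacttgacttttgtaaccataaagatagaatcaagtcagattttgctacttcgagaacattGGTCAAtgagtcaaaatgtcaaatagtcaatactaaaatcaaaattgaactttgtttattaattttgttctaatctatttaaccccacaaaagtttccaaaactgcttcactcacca

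In generation 3, 45 members had both libraries above both wild-type libraries (21.1% of all genes) and 14 below (22.2% of all genes), or 37.2% and 11.6% of the members. CYP71B36 stood highest by p. It was at 2.56 and 4.22 CPM in wild-type leaves, 6.02 and 4.14 CPM at 30 °C, 8.24 and 8.94 CPM in generation 2, 12.9 and 17.1 CPM in generation 3 and 9.80 and 10.6 CPM in sgs3-12. The generation 3 pair lay above all others. The log2 fold change was 2.15 ± 0.40 (SE) against wild type, with an adjusted p of 0.548 from edgeR and 0.00079 from DESeq2. It was the only member that DESeq2 called as higher in generation 3 (0.44% of all genes), and none was called as lower (0.491% of all genes). Its neighbour CYP71B37 had its highest level at 30 °C instead, so that these 2 neighbours peaked in different groups. CYP71B37 had become a member only through its 30 °C counts.

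Both generation 3 libraries exceeded both wild-type libraries for 3 of 4 cutin members and for 1 of 4 phenylpropanoid members, beside 21.1% of all genes. CYP86A2 was at 213 and 121 CPM in wild-type leaves, 127 and 113 CPM at 30 °C, 373 and 299.9 CPM in generation 2, 247 and 415 CPM in generation 3 and 296 and 269.6 CPM in sgs3-12. It overlaps PHT4;4, and the counts of both genes summed gave a ratio to wild type of 1.82 in generation 3. CYP77A4, which epoxidises fatty acids, was at 5.30 and 4.50 CPM in wild-type leaves and 10.6 and 11 CPM in generation 3. CYP73A5 was at 82 and 35.6 CPM in wild-type leaves, 79.6 and 77.2 CPM at 30 °C, 101 and 246 CPM in generation 2, 128 and 216 CPM in generation 3 and 176 and 186 CPM in sgs3-12. Both unstressed progeny pairs and the mutant pair lay above wild type for CYP73A5, while the 30 °C pair lay within the wild-type range. Its log2 fold change was 1.55 ± 0.56 (SE) in generation 3 (edgeR adjusted p 0.548). Next in the lignin pathway, CYP98A3 and CYP84A1 were at 47.4 and 66.3 CPM and 225 and 180.4 CPM in generation 3 against 51.2 and 48.1 CPM and 198 and 63.3 CPM in wild-type leaves, both overlapping. CYP78A9, a gene that promotes organ growth, was at 4.29 and 2.22 CPM in wild-type leaves, 7.19 and 7.69 CPM at 30 °C, 2.69 and 4.52 CPM in generation 2, 8.23 and 10.4 CPM in generation 3 and 3.84 and 10.5 CPM in sgs3-12. Of the 2 members lower at an unadjusted p under 0.05, CYP86C3 was at 1.55 and 0.464 CPM in wild-type leaves and 0.199 and 0.0973 CPM in generation 3, and CYP705A16, which overlaps CYP705A15, at 0.973 and 1.95 CPM and 0.398 and 0.195 CPM.

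Set against the 30 °C-grown plants instead of wild type, the progeny had lower levels of CYP71A25, CYP71B22, CYP71B37 and CYP707A4. These genes were named above for high levels in the same 30 °C libraries, so that their lower progeny levels are not separate evidence. CYP71B37 passed the count minimum only through its 30 °C counts, and its lower progeny level was partly fixed by the choice of members. At an unadjusted edgeR p under 0.05, generation 2 had 3 members higher (5.3% of all genes) and 5 lower (4.05%), and generation 3 had 5 higher (3.32%) and 4 lower (3.56%). CYP71A25 had log2 fold changes of -1.96 ± 0.44 (SE) in generation 2 and -1.21 ± 0.43 (SE) in generation 3, with edgeR adjusted p values of 0.476 and 0.648. CYP707A4 had -2.81 ± 0.78 (SE) and -2.005 ± 0.75 (SE) on the same scale. DESeq2 called CYP71A25, CYP71B37 and CYP707A4 as lower in generation 2 than at 30 °C, with adjusted p values of 0.00836, 0.0404 and 0.0356 (0.563% of all genes), and none as lower in generation 3 (0.449% of all genes). In generation 3 it called 1 member as higher than at 30 °C (0.607% of all genes), CYP71B36 with an adjusted p of 0.0366. Higher than at 30 °C in both generations was CYP86A2, with log2 fold changes of 1.48 ± 0.42 (SE) and 1.46 ± 0.42 (SE) and edgeR adjusted p values of 0.476 and 0.598. CYP71B23 was at 2.56 and 15.9 CPM in wild-type leaves, 7.77 and 5.92 CPM at 30 °C, 9.20 and 97.9 CPM in generation 2, 54.3 and 35.2 CPM in generation 3 and 25.5 and 80.2 CPM in sgs3-12, with wide gaps in 3 of the 5 pairs. Both generation 2 libraries lay above both 30 °C libraries for 18 members (16.7% of all genes) and below for 23 (18.7%), and both generation 3 libraries above for 48 (22.5%) and below for 27 (23.5%). The median log2 fold change of the members was 0.13 in generation 2 and 0.24 in generation 3 against 30 °C, beside 0.07 and -0.01 over all genes. The generation 2 median was 0.03 without its library 1, where edgeR called 5 members, and -0.43 without its library 2. These comparisons share the 30 °C libraries with each other and with the comparison of 30 °C-grown plants with wild type.

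In sgs3-12 the members with the lowest edgeR p among those above wild type were CYP705A19, the strigolactone gene CYP711A1 and CYP81D5, and among those below it CYP76C1, CYP706A6 and CYP71B26. None of these was called by edgeR. Both mutant libraries exceeded both wild-type libraries for 43 members (27% of all genes) and below for 30 (24.6% of all genes), or 35.5% and 24.8% of the members. CYP705A19, in a tandem run of CYP705A genes on chromosome 3, was at 8.44 and 8.02 CPM in wild-type leaves, 19.2 and 17.6 CPM at 30 °C, 23.6 and 16.9 CPM in generation 2, 20.9 and 27 CPM in generation 3 and 28 and 55.2 CPM in sgs3-12. All 8 other libraries exceeded both wild-type libraries. Its log2 fold change in the mutant was 2.34 ± 0.41 (SE), with an adjusted p of 0.266 from edgeR and 8.15e-05 from DESeq2. CYP711A1, known as MAX1, oxidises carlactone in strigolactone synthesis, the hormone that restrains shoot branching. It was at 9.64 and 4.26 CPM in wild-type leaves, 18.9 and 22.2 CPM at 30 °C, 11.4 and 34.6 CPM in generation 2, 16.1 and 27 CPM in generation 3 and 42.3 and 50.7 CPM in sgs3-12. The mutant pair was the highest and wild type the lowest, with a log2 fold change of 2.74 ± 0.62 (SE) (adjusted p 0.339 with edgeR and 0.00317 with DESeq2). CYP711A1 overlaps IQD6, whose highest level was 3.84 CPM, and the summed ratio of both genes to wild type was 5.76 in the mutant.

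The tandem run on chromosome 4 that holds CYP81H1, CYP81D5, CYP81D4, CYP81D8, CYP81F3 and CYP81F1 stood higher in the mutant for 4 of its 6 genes at an unadjusted p under 0.05, beside 4.98% of all genes. The run was picked out after its values were seen. CYP81H1 was at 38.2 and 28.3 CPM in wild-type leaves and 80.3 and 97.5 CPM in sgs3-12, and CYP81D5 at 3.23 and 3.66 CPM and 17.1 and 20.3 CPM. Their log2 fold changes were 1.42 ± 0.36 (SE) and 2.44 ± 0.57 (SE), with DESeq2 adjusted p values of 0.0195 and 0.00592 and an edgeR adjusted p of 0.339 for both. CYP81D4 was at 31.9 and 28.3 CPM and 52.5 and 56.2 CPM, and CYP81F1, a hydroxylase of indole glucosinolates, at 8.27 and 4.68 CPM and 14.6 and 18.1 CPM. The other two genes of the run were CYP81D8, at 1.77 and 6.03 CPM in wild-type leaves and 8.76 and 20.2 CPM in sgs3-12, and CYP81F3, at 8.00 and 4.31 CPM and 9.16 and 13.7 CPM. CYP78A6, which promotes organ and seed growth, was at 3.40 and 1.76 CPM in wild-type leaves and 5.84 and 6.28 CPM in sgs3-12.

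Lower in the mutant were CYP76C1, CYP706A6, CYP71B26, CYP71B7 and CYP78A8. CYP76C1 was at 75.7 and 98.5 CPM in wild-type leaves, 27.6 and 35 CPM at 30 °C, 41.4 and 18.9 CPM in generation 2, 62.5 and 36 CPM in generation 3 and 16.9 and 18.1 CPM in sgs3-12. The wild-type pair was the highest and the mutant pair the lowest of the 5, with a log2 fold change of -2.32 ± 0.48 (SE) and adjusted p values of 0.303 (edgeR) and 0.000355 (DESeq2). CYP71B26 was at 102 and 121 CPM in wild-type leaves, 72.3 and 64.5 CPM at 30 °C, 127 and 41 CPM in generation 2, 121 and 90.6 CPM in generation 3 and 14.8 and 31.8 CPM in sgs3-12, with a mutant log2 fold change of -2.26 ± 0.59 (SE) (DESeq2 adjusted p 0.00969). It lies in the same run of 6 CYP71B genes on chromosome 3 as CYP71B36, which stood higher in the mutant. DESeq2 called 5 members as higher (1.32% of all genes) and 3 as lower (1.5% of all genes) in sgs3-12. Beside those given above, these were CYP71B36 with an adjusted p of 0.0166 and CYP706A6, at 71.2 and 90.7 CPM in the mutant, with 0.00167. With library 1 of generations 2 and 3 both left out, edgeR called 11 members in sgs3-12, against 0 with all libraries.

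**Figure D5:**
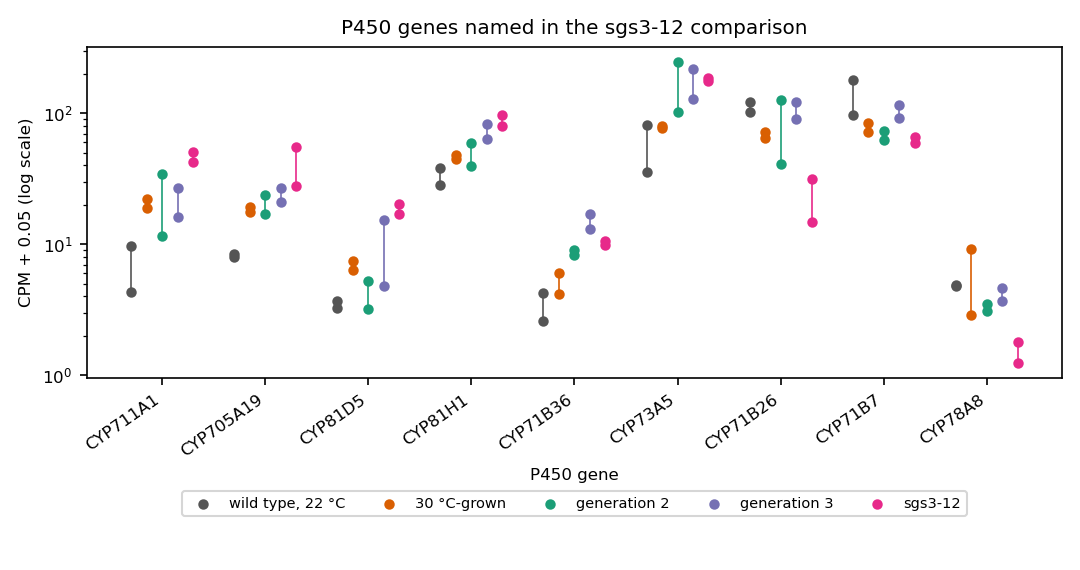
CPM + 0.05 on a log axis for 9 P450 genes named in the sgs3-12 comparison, with 1 point per library, a line joining the 2 libraries of a group, and colour for the group. The pink sgs3-12 pair of CYP711A1 at 42.3 and 50.7 CPM lies above every other pair, and that of CYP71B26 at 14.8 and 31.8 CPM lies below every other pair.

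Hormone genes other than CYP711A1 were less clearly separated in the mutant. Of the 6 brassinosteroid synthesis genes tested, 4 lay below both wild-type libraries (24.6% of all genes) and none above, with a median log2 fold change of -1.22 and none at an unadjusted p under 0.05. CYP90A1 was one of these 4, as given above, and CYP90B1 was another, at 25.9 and 12.9 CPM in wild-type leaves and 10.003 and 4.54 CPM. Of the 4 CYP707A genes, 3 exceeded both wild-type libraries (27% of all genes), and CYP707A2 at 11 and 17.8 CPM had an unadjusted edgeR p of 0.049. CYP74A, the most abundant member, was at 135 and 306 CPM in the mutant and overlapped wild type.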

How the data were processed

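Leaf RNA was read as counts per gene that the authors deposited, 1 column for each of 10 libraries, per the file headers. The submitters' processing notes name HISAT2 2.0.4, StringTie 1.3.0 and the build TAIR10. The sources used here do not name the counter or its use of strand. The deposited FPKM columns served only to derive transcript length. A repeated column name left 2 of them unused, so that 8 served. Counts were tested in all 10 libraries with edgeR 4.0.16 (R 4.3.3; quasi-likelihood test, TMM, group as the only factor, filterByExpr), which kept 19768 genes and all 121 members. P-values were adjusted by Benjamini-Hochberg over all genes tested, with calls under 0.05. Printed CPM are TMM-scaled, n = 2 per group, and errors are standard errors. DESeq2 1.42.0, RLE scaling, no filter, a replicate block, a transcript length offset and left-out libraries were alternatives. Folds against groups at 0 use a floor of 3 counts over the group on the TMM scale, which covers counting error only. Of 33602 gene IDs, 32835 matched RefSeq TAIR10.1, of which 32834 overlapped the deposited coordinates. Genes were named by a rule: up to 5 members per direction and comparison by edgeR p, without overlap, members with a listed role, and the 10 most abundant. CYP71A24, CYP81D4 and CYP706A2 were named after their values were seen. Members, lists and rules were chosen with earlier results of these data known.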

Additional observations from a re-analysis of the deposited data

Results flagged for a closer look

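CYP85A1, the castasterone synthase, was higher than wild type in both 30 °C libraries and lower in both generation 3 libraries. It was at 1.90 and 1.48 CPM in wild-type leaves, 5.68 and 3.68 CPM at 30 °C and 0.796 and 0.146 CPM in generation 3. The log2 fold change of generation 3 against 30 °C was -3.34, with an unadjusted edgeR p of 0.0405 and an edgeR adjusted p of 0.7. In sgs3-12 CYP85A1 was also lower than wild type in both libraries, at 0.800 and 0.0891 CPM. The log2 change of sgs3-12 minus that of the 30 °C plants was -3.36, and this difference was not tested.

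CYP708A3 was higher than wild type in both 30 °C libraries, at 30.8 and 38.8 CPM against 18.3 and 26.4 CPM, and lower in both sgs3-12 libraries, at 12.3 and 13.0 CPM. The log2 change of sgs3-12 minus that of the 30 °C plants was -1.46, and this difference was not tested. All 3 contrasts share the same wild-type libraries.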

How the results depend on the processing

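The 73 single-gene results gave 1168 values under the alternatives, of which 1127 kept their direction and side of the threshold, 40 passed it and 1 changed sign. The change of sign was that of CYP705A15 in generation 2 against wild type. Its log2 fold change was 1.22 with the transcript length offset and -0.90 in the main fit, and the cause was not tested. In the order 30 °C, generation 2, generation 3 and sgs3-12 against wild type, then generation 2 and 3 against 30 °C, DESeq2 called 3, 9, 1, 8, 3 and 1 members and 278, 625, 184, 572, 319 and 214 genes, where edgeR called 0. Without library 1 of generations 2 and 3, edgeR called 1, 14, 11 and 7 members at 30 °C, in generation 2, in sgs3-12 and for generation 2 against 30 °C, and 50, 1222, 801 and 788 genes. Without the low-count filter 1 gene was called in sgs3-12. Same-numbered libraries correlated between -0.27 and 0.45, so the numbers were not taken to pair samples; with the replicate block 1 gene was called in generation 2 and 1 in sgs3-12, and no member. The member median for generation 3 against 30 °C moved from 0.24 to 0.20 without the filter, 0.20 with the replicate block, 0.27 with the length offset and 0.21 without library 1 of generations 2 and 3. With the length offset it was 0.42 for generation 2 against wild type and 0.24 against 30 °C. Leaving out single libraries gave 0 to 12 members for generation 2 against wild type and 0 to 5 against 30 °C, and 0 in the other 4 comparisons. Gene calls then ranged from 0 to 34, 0 to 1637, 0 to 1, 0 to 5, 0 to 487 and 0 to 0 in the same order. Member medians ranged from 0.20 to 0.32, -0.12 to 0.35, 0.32 to 0.51, 0.068 to 0.28, -0.43 to 0.13 and 0.17 to 0.25. With 2 libraries per group, low members such as CYP71B37 and CYP86C3 rest on few counts.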
